A study of Mus musculus with 36 samples.

Results

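The comparison described here is that of lnc13 knockout with wild-type CD8 intraepithelial lymphocytes of the mouse small intestine after culture with interleukin 15. Its members are the 6 libraries that the sample titles place in the IL-15 culture, 3 knockout and 3 wild-type, of 36 samples in the series. The study asked how the long noncoding RNA lnc13 bears on inflammatory responses and on oral tolerance to gluten. It sequenced RNA of whole small intestine, lamina propria and intraepithelial preparations from gluten-challenged mice carrying the human coeliac risk molecule HLA-DQ8, and RNA of CD8 cells with and without culture. Both groups used here were CD8a+ intraepithelial lymphocytes cultured in IL-15 for 48 h, and they differed by genotype, lnc13-WT or lnc13-KO. The titles of these 6 samples do not carry the DQ8 tag of the tissue samples. Age, sex, the dose of IL-15, the form of the deletion and whether cells of several mice were pooled are not given in the sources used here. The sample titles call the 3 libraries of a group biological replicates, and no source says whether knockout and wild-type libraries with the same number came from one experiment, so they were not paired.

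Intraepithelial lymphocytes are T cells that live between the epithelial cells of the gut, and in mouse small intestine many of them carry CD8 as an alpha-alpha homodimer together with either an alpha-beta or a gamma-delta T cell receptor. IL-15 is a survival and activation signal for these cells. It acts through the IL-2 receptor beta chain and the common gamma chain, the kinases JAK1 and JAK3 and the transcription factor STAT5, and in coeliac disease it is abundant in the gut epithelium and makes intraepithelial lymphocytes cytotoxic through NK receptors. In human cells lnc13 lies in the neighbourhood of IL18RAP, carries coeliac-associated variants and has been described as a partner of hnRNPD and HDAC1 that holds down a set of inflammatory genes in macrophages.

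The values are read counts per gene scaled by 1 size factor per library, called normalised counts below. Reads assigned to genes numbered 16327944, 16955783 and 26997371 in wild-type replicates 1 to 3 and 16998923, 14724754 and 17611887 in the knockout libraries. Of 78275 Ensembl genes in the table, 16371 had a mean of at least 5 normalised counts over the 6 libraries and were tested. lnc13 itself is not analysed here, so its own RNA gave no check of the genotypes. The mice differed in sex: Ddx3y, a gene of the Y chromosome, had 2765 normalised counts in wild-type replicate 1, 1.12 in wild-type replicate 2 and 0 in the other 4 libraries, and Xist, the RNA of the inactive X chromosome, had 1.14 in wild-type replicate 1 and between 897 and 2167 in the other 5. Ptprc, which encodes the leukocyte antigen CD45, ranged from 49819.9 to 67072.

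The labelled cell type could be read in all 6 libraries. Cd8a, the CD8 alpha chain, stood at 45347, 43194 and 57819.5 in the wild-type and 39089, 43163 and 35297 in the knockout libraries, and Cd3e, the CD3 epsilon chain, at 15379, 14793 and 20122 in the wild-type and 16358, 15853 and 14675 in the knockout libraries. Cd4 had no more than 49.95 normalised counts in any library. Some defining genes of other cells were at or close to 0: Lyz2 of macrophages, S100a8 and S100a9 of neutrophils and the mast cell protease genes Mcpt1 and Mcpt2 were at 0 in all 6, Csf1r of macrophages did not exceed 2.23, Ncr1 of NK cells did not exceed 14.9, and Col1a1 of fibroblasts did not exceed 9.31. Others were present: Epcam and Cdh1, of epithelium and also of intraepithelial T cells, ranged from 668 to 3071 and from 1230.0 to 2160.5, Itgax of dendritic cells and of some T cells from 137 to 480.2, Siglech of plasmacytoid dendritic cells from 0 to 1282, Ighm of B cells from 1287 to 9622 and Kit of mast cells and innate lymphoid cells from 239 to 8347. Markers of 1 cell type did not go together. Of other macrophage genes Cx3cr1 did not exceed 19.6, while Cd68 ranged from 150 to 492 and Cybb from 29.8 to 416. Of other NK cell genes Klrb1c ranged from 0 to 150 and Eomes from 1.33 to 48.0. Of other B cell genes Ms4a1, Cd79a and Pax5 did not exceed 6.81, 16.6 and 1.12, while Bank1 ranged from 29.1 to 352 and Cd79b from 1224 to 2307. Of other dendritic cell genes Clec9a and Flt3 did not exceed 19.6 and 73.7, while Zbtb46 ranged from 91.9 to 211.

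Wild-type replicate 3 stood apart from the other 5 libraries, and results are therefore given with and without it. It correlated with each of them at 0.87 to 0.887 across the tested genes (Pearson's r of log2 values), whereas the other 5 correlated with each other at 0.948 to 0.976, both genotypes included. On the first principal component, which held 58.6% of the variance, it lay at 183.6 and the other 5 lay between -45.9 and -23.4. In this library 197 genes (1.2% of those tested) were at least 4-fold above every other library and 1372 genes (8.38%) at least 4-fold below, 1569 in all. In each of the other 5 libraries the same count was between 3 and 182. The deepest of the 6, it had a read in 21149 genes, fewer than the 23541 to 29333 of the others.

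Among the genes with large differences between wild-type replicate 3 and the other libraries were some that mark alpha-beta, gamma-delta and NK-like cells. Cd8b1, the CD8 beta chain, stood at 43429 normalised counts there and at 1681 to 6394 in the others. Trac, the constant region of the T cell receptor alpha chain, was 18089.9 against 6802 to 10464. Trdc, the constant region of the delta chain, was 1897 against 26591 to 43735, and Tcrg-C1 of the gamma chain was 3109.5 against 17103 to 28738. Tcrg-C4, another gamma chain gene, did not stand apart in this library, at 15475 against 14076 to 26893. This library thus had the most T cell receptor alpha and CD8 beta chain RNA of the 6 and the least delta chain RNA. It also had the highest levels of Cd5, a negative regulator of receptor signalling (3689 against 78.1 to 572), of the costimulatory receptor gene Cd28 (2419 against 127 to 394) and of Il7r, the IL-7 receptor alpha chain of resting T cells (10799 against 707 to 1988).

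Of 21 genes tested in a list of NK receptors and their adaptors, 11 lay at least 4-fold below every other library in wild-type replicate 3 and none above. Tyrobp, the adaptor DAP12, was 232 there and 8708 to 10725 in the others. Fcer1g, the signalling chain shared by Fc receptors and NK receptors, was 1963 against 17345 to 35661, and Klra7, a Ly49 receptor, was 0 against 509 to 895. By the naming rule for single libraries the 8 genes with the widest gap above the others were Ankrd6, Muc2, Ank2, Apobec2, Hmgcll1, Cd40lg, Nr1d1 and Prdm16, and the 4 with the widest gap below were Aoah, Klra7, Siglech and Htra3. Of other lists, 5 of 11 MHC class II genes and 4 of 9 dendritic cell genes tested lay at least 4-fold below every other library. So did 4 of 7 gamma-delta T cell, 4 of 8 NK and innate lymphoid cell and 3 of 7 macrophage genes. Over all genes tested, 8.38% lay that far below in wild-type replicate 3. Cd40lg, the CD40 ligand of activated T cells, had 185 in this library and 1.12 to 12.8 elsewhere. Aoah, an enzyme that deacylates bacterial lipopolysaccharide, had no read there and 764 to 1145 elsewhere. In the plot of these marker genes the points of wild-type replicate 3 lie outside the other 5 for most genes. For Cd8a, Trac, Il7r, Trdc and Tcrg-C1 all knockout points lie below wild-type replicates 1 and 2. For the other plotted genes the points of these wild-type libraries and the knockout points mix. In bulk RNA a different share of cells and a different level of RNA per cell cannot be told apart.

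**Figure D1:**
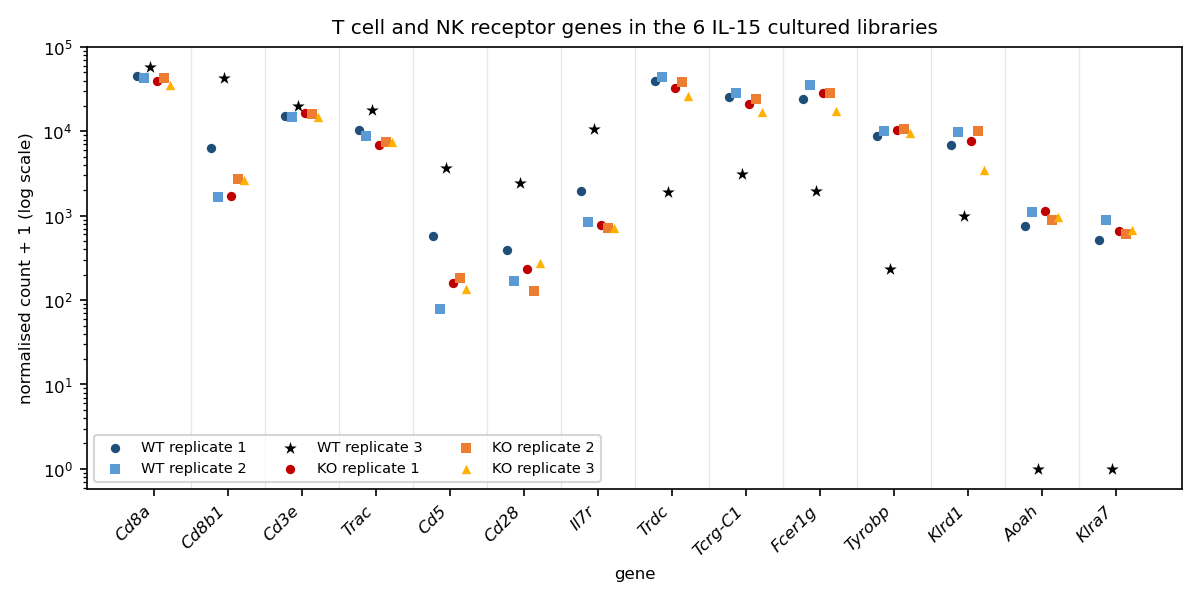
Normalised count + 1 (log axis) of 14 T cell and NK receptor genes in each of the 6 libraries, 1 point per library. Wild-type replicate 3 (star) had Cd8b1 at 43429 where the others had 1681 to 6394, and Trdc at 1897 where the others had 26591 to 43735.

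With all 6 libraries, no gene of 16371 passed an adjusted p of 0.05 in limma-trend on log2(normalised count + 1), in which 1841 genes (11.2%) had an unadjusted p under 0.05. The edgeR quasi-likelihood test on the whole reads recovered from the table also called 0, with 1656 at an unadjusted p under 0.05, while DESeq2's Wald test called 145, of which 106 (0.647% of the genes tested) were higher and 39 (0.238%) lower in knockout cells. The 3 knockout libraries lay above all 3 wild-type libraries for 1818 genes (11.1%) and below them for 1499 (9.16%). The median log2 difference over all tested genes, knockout minus wild-type, was 0.083. Without wild-type replicate 3, limma-trend called 1 gene (0.00611%), the predicted gene Gm38111, edgeR called 0 with 3034 at an unadjusted p under 0.05, and DESeq2 called 757, 505 higher (3.08%) and 252 lower (1.54%). Gm38111, named after its values were seen, had 0, 0 and 61.7 in the wild-type and 92.3, 74.5 and 61.7 in the knockout libraries, and the wild-type library left out lies at the level of knockout replicate 3. Of the 106 genes that DESeq2 called higher with all 6 libraries, 100 were also called higher without wild-type replicate 3, and 37 of the 39 called lower were also called lower.

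The unstimulated CD8 table, with 3 knockout and 3 wild-type libraries of its own, was normalised apart and shares no control with the comparison above. There 0 of 17208 genes passed limma-trend, and the groups did not overlap for 656 genes (3.81%) with knockout above and 810 (4.71%) with knockout below. Its values are set beside the IL-15 values where they are given, without a test across the tables.

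Among the 51 gene lists with a tested member, the genes of the mitochondrial chromosome had the largest share of members below the wild-type range. They encode subunits of the respiratory chain, and their RNA is made in the mitochondrion itself. mt-Cytb, which encodes cytochrome b of complex III, stood at 98944, 115196 and 98825 in the wild-type and 58188, 64955 and 57235 in the knockout libraries. All 3 knockout libraries lay below all 3 wild-type libraries, and wild-type replicate 3 lay close to wild-type replicate 1. The log2 difference was -0.79 ± 0.11 (SE) and -0.83 without wild-type replicate 3, and the gene did not pass limma-trend (adjusted p = 0.349) but passed DESeq2 (adjusted p = 4.69e-05).

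mt-Nd4, a subunit of complex I, had 11247, 12855 and 10104 in the wild-type and 6808, 7204 and 5591 in the knockout libraries. Its neighbour in function mt-Nd5 had 14128, 16562 and 13547 in the wild-type and 8799.8, 8968 and 5989 in the knockout libraries. mt-Nd1, also of complex I, had 22289, 23466 and 19775 in the wild-type and 14367, 15958 and 13928 in the knockout libraries. For each of these complex I genes the groups did not overlap, with log2 differences of -0.80 ± 0.14, -0.92 ± 0.18 and -0.57 ± 0.11 (SE), and each passed DESeq2 (adjusted p = 0.00253, 0.00629 and 0.0148) but not limma-trend. mt-Co1, the catalytic subunit of cytochrome oxidase, had 51419.5, 52439 and 39188 in the wild-type and 31550.3, 33084 and 24551 in the knockout libraries. It too had no overlap, with a log2 difference of -0.68 ± 0.16, and passed neither test (DESeq2 adjusted p = 0.0556). In the unstimulated table the log2 differences of these 5 genes had the other sign, from 0.03 for mt-Nd5 to 0.36 for mt-Nd1.

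Of 12 mitochondrially encoded genes listed 11 could be tested, and of these 7 lay below the wild-type range in all knockout libraries and none above it, beside 9.16% of all genes below. The median log2 difference of the 11 was -0.68, and -0.83 without wild-type replicate 3. mt-Co3, mt-Co2, mt-Atp6 and mt-Atp8, the 4 whose groups overlapped, were also the 4 of lowest level, none above 108 in a library. mt-Co2 had 14.6 to 46.5 where mt-Co1, of the same enzyme, had 24551 to 52439. Whether reads of these 4 genes were fully mapped and counted was not tested, and the shares that follow have the same limit. Genes named mt- took 1.37% to 1.57% of all normalised counts in wild-type and 0.769% to 1.16% in knockout libraries. Of 20 nuclear genes for subunits of the respiratory chain that were tested, complex II included, 18 had a log2 difference below 0, 5 were below the wild-type range and none above, with a median of -0.13. The difference between the nuclear and the mitochondrially encoded list was not tested. Sdhb, the iron-sulphur subunit of complex II, had 9007, 9074 and 8653 in the wild-type and 7342, 6571 and 7627 in the knockout libraries, a log2 difference of -0.31 ± 0.10 (SE). The share of mitochondrial RNA is also a measure of cell state and RNA quality in a library, and its part in these differences was not tested.

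**Figure D2:**
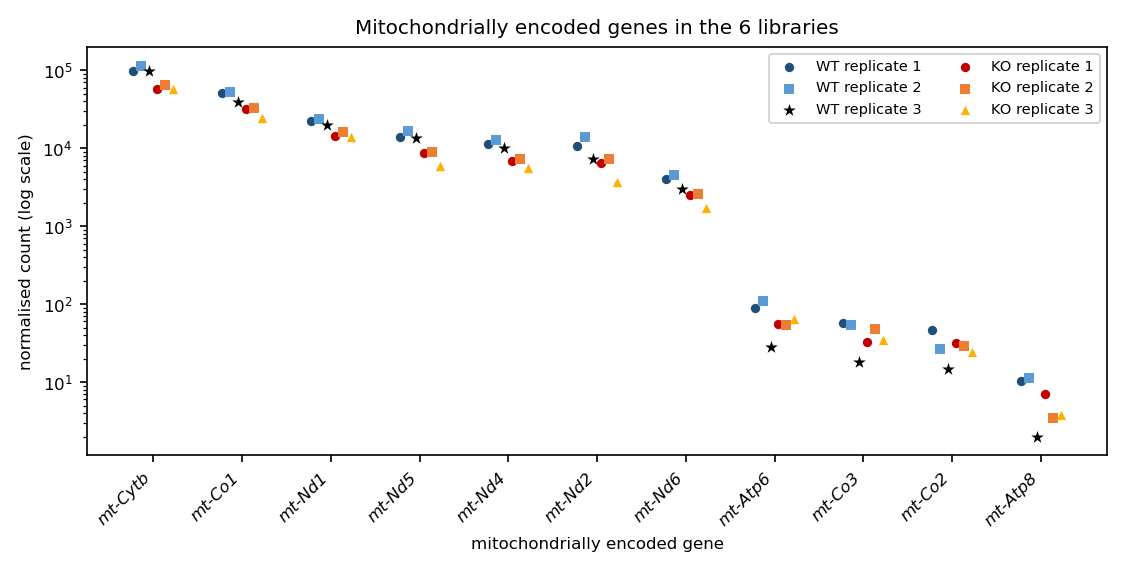
Normalised counts (log axis) of the 11 tested mitochondrially encoded genes in each of the 6 libraries, ordered by wild-type mean. For the 7 genes of higher level all 3 knockout points lie below all 3 wild-type points, as for mt-Cytb at 58188, 64955 and 57235 against 98944, 115196 and 98825, and for the 4 of lowest level the groups overlap.

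Beside the 4 mitochondrial genes, the 12 leading genes on the lower side (smallest unadjusted p, a mean of at least 50 and groups that did not overlap) held 3 that are known from lymphocytes. Klrc1 encodes the NKG2A chain, which pairs with CD94 into an inhibitory receptor for the nonclassical class I molecule Qa-1. It stood at 453, 424 and 484 in the wild-type and 211, 226 and 259 in the knockout libraries, so that each knockout library had less than any wild-type library, and the log2 difference was -0.97 ± 0.18 (SE). Crtam, a receptor of activated CD8 and intraepithelial T cells for an adhesion molecule on other cells, stood at 3088, 2919 and 3314 in the wild-type and 1934, 1941 and 2260.0 in the knockout libraries, a log2 difference of -0.61 ± 0.12. Ets1, a transcription factor of lymphocyte development, stood at 26993, 27232 and 31859.7 in the wild-type and 21380.0, 16629 and 18416 in the knockout libraries, a log2 difference of -0.61 ± 0.13. For Klrc1, Crtam and Ets1 wild-type replicate 3 was the highest of the 6 libraries.

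The other 5 leading genes on that side were H1f0, Sugt1, Glmp, Arl6ip1 and Fam3c. H1f0, a linker histone of non-dividing cells, had 1296, 1141 and 1402 in the wild-type and 769.5, 724 and 775 in the knockout libraries. Sugt1, a cochaperone of Hsp90, had 5766, 6360.5 and 6505 in the wild-type and 3972, 4122 and 4062 in the knockout libraries. Glmp, a glycoprotein of the lysosomal membrane, had 5476, 4783 and 5705 in the wild-type and 3599, 3538 and 3081 in the knockout libraries. Arl6ip1, which shapes the endoplasmic reticulum, and Fam3c, a secreted protein, had log2 differences of -0.46 ± 0.094 and -0.54 ± 0.11 (SE). All 12 had an adjusted p of 0.349 in limma-trend and passed DESeq2, at adjusted p from 4.69e-05 for mt-Cytb to 0.0304 for Arl6ip1. Without stimulation, where values such as those of Klrc1 varied widely within a genotype, 5 of the 12 had a log2 difference of the same sign. The groups of that table lay wholly apart in the same direction for H1f0 (0, 4.65 and 0 in knockout against 4148, 1840.1 and 4580.1 in wild-type libraries) and Crtam (2066, 909.9 and 1586 against 3631, 2304 and 2959.9). For Glmp the knockout libraries of that table lay above all wild-type libraries (5855, 13305 and 5900.1 against 3446, 1979 and 4388).

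On the higher side the 11 leading genes reported were Rexo1, Gga1, Cbl, Atp8a1, Rhbdd2, Ep300, Trappc9, Smg1, Rin3, C2cd3 and Nr2c2, with log2 differences from 0.75 for Atp8a1 to 1.51 for Trappc9. Cbl, the ubiquitin ligase that ends signalling from antigen and cytokine receptors, stood at 537, 457 and 664 in the wild-type and 1049, 979.6 and 1166 in the knockout libraries. The groups did not overlap, with a log2 difference of 0.96 ± 0.18 (SE). Ep300, a histone acetyltransferase and coactivator, stood at 212, 240.0 and 340.3 in the wild-type and 653, 569 and 536 in the knockout libraries, a log2 difference of 1.17 ± 0.23. Smg1, the kinase that starts nonsense-mediated decay of faulty messenger RNA, stood at 765, 803 and 668 in the wild-type and 1494, 1186 and 1213 in the knockout libraries, a log2 difference of 0.80 ± 0.16. In the unstimulated table Smg1 lay the other way with no overlap, at 2180.3, 3737 and 1611 in wild-type and 34.6, 1519.6 and 242 in knockout libraries.

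Values of some of the other genes on this side follow. Gga1, an adaptor for transport from the trans-Golgi, had 173, 119 and 153 in the wild-type and 298, 476 and 463 in the knockout libraries. Atp8a1, a flippase that keeps phosphatidylserine on the inner face of membranes, had 555, 536 and 488 in the wild-type and 929, 827 and 897 in the knockout libraries. For Gga1 and Atp8a1 the lowest knockout value lay above the highest wild-type value by more than the whole wild-type range. Trappc9 of a vesicle tethering complex and Rin3, an exchange factor for the small GTPase Rab5, had log2 differences of 1.51 ± 0.29 and 0.97 ± 0.19 (SE). All 11 had an adjusted p of 0.349 in limma-trend and passed DESeq2, at adjusted p from 0.00094 for Gga1 to 0.00613 for C2cd3, and 3 of the 11 had the same sign in the unstimulated table.

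**Figure D3:**
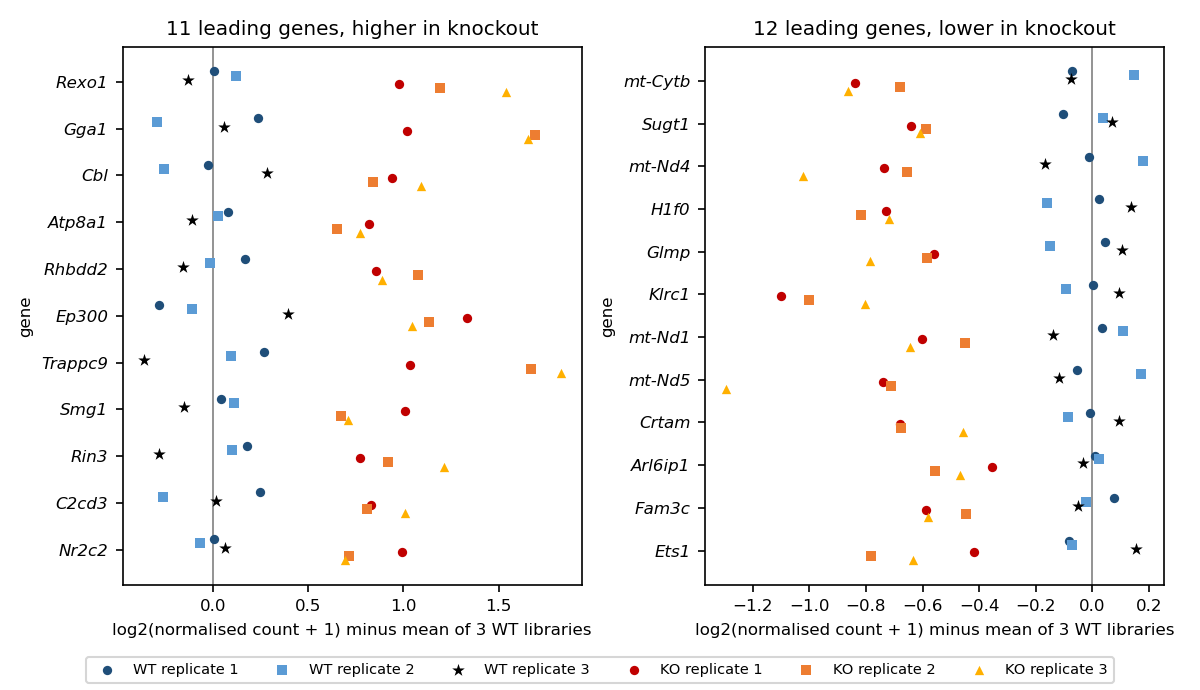
For the 11 leading genes on the higher and the 12 on the lower side, log2(normalised count + 1) of each library minus the mean of the 3 wild-type libraries. By the rule that chose them the knockout points (red, orange, yellow) lie on one side of the wild-type points (blue and black), and wild-type replicate 3 (star) stays with the other wild-type libraries.

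The receptor chains through which IL-15 acts lay on opposite sides. Il2rb, the beta chain shared by the IL-2 and IL-15 receptors, stood at 5250.5, 4222 and 3178 in the wild-type and 6647, 8571 and 8622 in the knockout libraries. All knockout libraries lay above all wild-type libraries, the log2 difference was 0.93 ± 0.20 (SE), and the gene did not pass limma-trend (adjusted p = 0.352) but passed DESeq2 (adjusted p = 0.016). Il2rg, the common gamma chain, stood at 57510.1, 55848 and 50974 in the wild-type and 44452, 35155 and 42203 in the knockout libraries, with all knockout libraries below and a log2 difference of -0.44 ± 0.12. Jak3, the kinase bound to the gamma chain, stood at 176, 196 and 226 in the wild-type and 263, 414 and 446 in the knockout libraries, with all knockout libraries above and a log2 difference of 0.87 ± 0.26. Neither Il2rg nor Jak3 passed either test. Of 17 genes tested in this receptor list 3 lay above the wild-type range and 1 below, beside 11.1% and 9.16% of all genes, with a median log2 difference of 0.01, or 0.09 without wild-type replicate 3.

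Of 20 known targets of STAT5 and survival genes, 5 lay above the wild-type range and 3 below, beside 11.1% and 9.16% of all genes, with a median log2 difference of 0.10, or 0.17 without wild-type replicate 3. Bcl2l1, which encodes the survival protein Bcl-xL, stood at 991, 762 and 923 in the wild-type and 1218, 1643 and 2189.9 in the knockout libraries. Its groups did not overlap, and the log2 difference of 0.88 ± 0.23 (SE) passed DESeq2 (adjusted p = 0.0444) and not limma-trend (adjusted p = 0.405). Socs1, the feedback inhibitor of JAK kinases, stood at 2743, 1763 and 2772 in the wild-type and 2929, 3587 and 5254 in the knockout libraries, and the serine kinase gene Pim2 at 7791, 7449 and 3687 in the wild-type and 10059, 8759.6 and 10979 in the knockout libraries. The log2 difference of Pim2 was 0.73 with and 0.38 without wild-type replicate 3. Ccnd3, cyclin D3, had a log2 difference of 0.61 ± 0.19. Socs1, Pim2 and Ccnd3 had no overlap and passed neither test. Bcl2 itself had overlapping groups, at 13222, 14869 and 14976 in the wild-type and 15465, 17163 and 14192 in the knockout libraries.

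With all 6 libraries the 2 IL-18 receptor genes of the lnc13 neighbourhood varied more within genotypes than between them. Il18rap, the accessory chain, stood at 497, 311 and 1364 in the wild-type and 499, 292 and 610.3 in the knockout libraries, and wild-type replicate 3 had the highest value of the 6. With it the log2 difference was -0.42 ± 0.54 (SE) and without it 0.18. Il18r1, the ligand-binding chain, stood at 49.95, 65.9 and 353 in the wild-type and 111, 67.5 and 122 in the knockout libraries, again highest in wild-type replicate 3. Its log2 difference was -0.11 ± 0.72, and 0.75 without that library. All knockout libraries lay above wild-type replicates 1 and 2 for Il18r1, at 67.5 against 65.9 where they were closest. By that looser rule 3359 of all 16371 genes tested lay above. Of 15 genes of IL-18 and IL-12 signalling 2 lay above the wild-type range and none below, beside 11.1% and 9.16% of all genes. Nfkbiz, an inducible NF-kB cofactor, stood at 664, 649.7 and 652 in the wild-type and 878, 1009 and 1061 in the knockout libraries, a log2 difference of 0.58 ± 0.14 that passed DESeq2 (adjusted p = 0.0404) and not limma-trend (adjusted p = 0.404).

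Of 20 NF-kB and inflammation genes tested, 4 lay above the wild-type range and none below, beside 11.1% and 9.16% of all genes, with a median log2 difference of 0.09, or 0.14 without wild-type replicate 3. Rela, the p65 subunit of NF-kB, stood at 1235, 1083 and 897 in the wild-type and 1444, 1853 and 1906 in the knockout libraries, a log2 difference of 0.70 ± 0.18 (SE). Rel, a subunit of activated lymphocytes, stood at 621, 579 and 377 in the wild-type and 845, 734 and 651 in the knockout libraries, a log2 difference of 0.52 with and 0.30 without wild-type replicate 3. Both had no overlap and passed neither test. Of 11 genes listed because earlier work in other cells tied them to lnc13, 10 were tested and none had separate groups: for example, Stat3 stood at 5178, 4390.3 and 6564 in the wild-type and 5738, 6327 and 6089 in the knockout libraries and Myd88 at 1391, 1283 and 1519.6 in the wild-type and 1443, 1199.5 and 1250.5 in the knockout libraries.

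Of 17 genes of the T cell receptor complex tested, 15 had a log2 difference below 0, 5 were below the wild-type range and none above, where all genes gave 9.16% below and 11.1% above. None passed either test. The median log2 difference was -0.34, or -0.27 without wild-type replicate 3, and the former is less than the spread of the list's median between libraries of a genotype (SD 0.416). Cd3e overlapped between groups, at a log2 difference of -0.09. Lcp2, the adaptor SLP-76, stood at 18879, 21136 and 25291 in the wild-type and 16902, 15153 and 14719 in the knockout libraries, Lck, the kinase that starts receptor signalling, at 40973, 40184 and 44918 in the wild-type and 35093, 32788 and 33223 in the knockout libraries, and Cd3d at 20141, 19847 and 21023 in the wild-type and 16801, 16916 and 15799 in the knockout libraries. Their log2 differences were -0.47 ± 0.13, -0.32 ± 0.092 and -0.30 ± 0.089 (SE), with no overlap between groups. Trat1, an adaptor of the receptor complex that had been listed among helper T cell genes, stood at 5712, 5322 and 8006 in the wild-type and 3224, 3789 and 2418 in the knockout libraries. All knockout libraries lay below, and the log2 difference of -1.01 ± 0.22 passed DESeq2 (adjusted p = 0.00994) but not limma-trend (adjusted p = 0.352). Cd8b1 and Trac, which set wild-type replicate 3 apart, had log2 differences of -1.75 and -0.71 with that library and of -0.51 and -0.41 without it.

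Cytotoxic genes were abundant in every library. Gzma, granzyme A, stood at 303104, 355744 and 71382 in the wild-type and 253575, 286880.1 and 133606 in the knockout libraries, and Gzmb, granzyme B, at 177242, 169366 and 92565 in the wild-type and 146883, 185604 and 81574 in the knockout libraries. Wild-type replicate 3 had the least Gzma and knockout replicate 3 had the least Gzmb, and the groups overlapped for both. Of 16 granule genes tested, 1 lay above and 3 below the wild-type range, beside 11.1% and 9.16% of all genes, with a median log2 difference of -0.10, or -0.33 without wild-type replicate 3. Serpinb9, the granzyme B inhibitor that guards the killer cell itself, stood at 1889, 1970.2 and 2227 in the wild-type and 1527, 1616 and 1071 in the knockout libraries, and Unc13d, which primes granules for release, at 296, 294 and 335 in the wild-type and 370.2, 450.2 and 509 in the knockout libraries. Their log2 differences were -0.55 ± 0.18 and 0.51 ± 0.19 (SE), and neither passed a test.

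Ccl5, a chemokine stored by effector and memory CD8 T cells, stood at 255598, 232409.6 and 210902 in the wild-type and 186798, 178247 and 103988 in the knockout libraries. Knockout libraries were all below, knockout replicate 3 the farthest, and the log2 difference of -0.62 ± 0.22 (SE) passed neither test (limma-trend adjusted p = 0.422). Ifng, interferon gamma, stood at 285, 176 and 815 in the wild-type and 127, 207 and 128 in the knockout libraries, and the groups overlapped. Fasl, the death ligand, stood at 13185, 14636 and 12085 in the wild-type and 10632, 12544 and 5325 in the knockout libraries, also with overlap. Cd96, an inhibitory receptor for nectin-like ligands, stood at 30671, 31551 and 29646 in the wild-type and 24355, 23842 and 19690.0 in the knockout libraries, with all knockout libraries below and a log2 difference of -0.44 ± 0.11. Il7r had all knockout libraries below all wild-type ones, at 1988, 848 and 10799 in the wild-type and 775, 720.2 and 707 in the knockout libraries, but its log2 difference moved from -1.84 to -0.82 without wild-type replicate 3.

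The NK receptor list shows how far 1 library can carry a median. Its 21 tested genes had a median log2 difference of 0.93 with all 6 libraries and of -0.28 without wild-type replicate 3. Of the 21, 1 gene, Klrc1, lay below the wild-type range and none above, beside 9.16% and 11.1% of all genes. Klrd1, the CD94 partner of NKG2A, stood at 6831, 9714 and 999 in the wild-type and 7678, 10029 and 3484 in the knockout libraries, and Klrk1, the activating receptor NKG2D, at 773, 310.3 and 85.6 in the wild-type and 412, 218 and 336 in the knockout libraries, both lowest in wild-type replicate 3. Kit, the receptor for stem cell factor, stood at 3439.8, 4521 and 239 in the wild-type and 5469.9, 5008 and 8347 in the knockout libraries. Its knockout libraries lay above all wild-type libraries, at log2 differences of 1.98 ± 1.02 (SE) with and 0.63 without wild-type replicate 3.

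The same held for genes of the cell cycle. All 24 DNA replication genes and all 22 mitosis genes had a log2 difference above 0 with all 6 libraries, at medians of 0.38 and 0.62. Without wild-type replicate 3 there were 15 of 24 and 11 of 22 above 0, at medians of 0.01 and -0.01. Knockout libraries differed among themselves: Mki67, a marker of dividing cells, stood at 2606, 3185 and 1429 in the wild-type and 3687, 1302 and 5309.7 in the knockout libraries, and Top2a, a topoisomerase of dividing cells, at 7085, 7155 and 1782 in the wild-type and 8424, 3396 and 13001 in the knockout libraries, so that knockout replicate 2 was low and knockout replicate 3 the highest of all 6. Of the 24 replication genes 3 lay above the wild-type range and none below, beside 11.1% and 9.16% of all genes. Mcm2, a subunit of the replicative helicase, was 1 of these 3, at 3115, 2551 and 1509 in the wild-type and 4122, 4200.0 and 5759 in the knockout libraries, a log2 difference of 1.02 ± 0.28 (SE) that passed neither test (DESeq2 adjusted p = 0.0717).

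**Figure D4:**
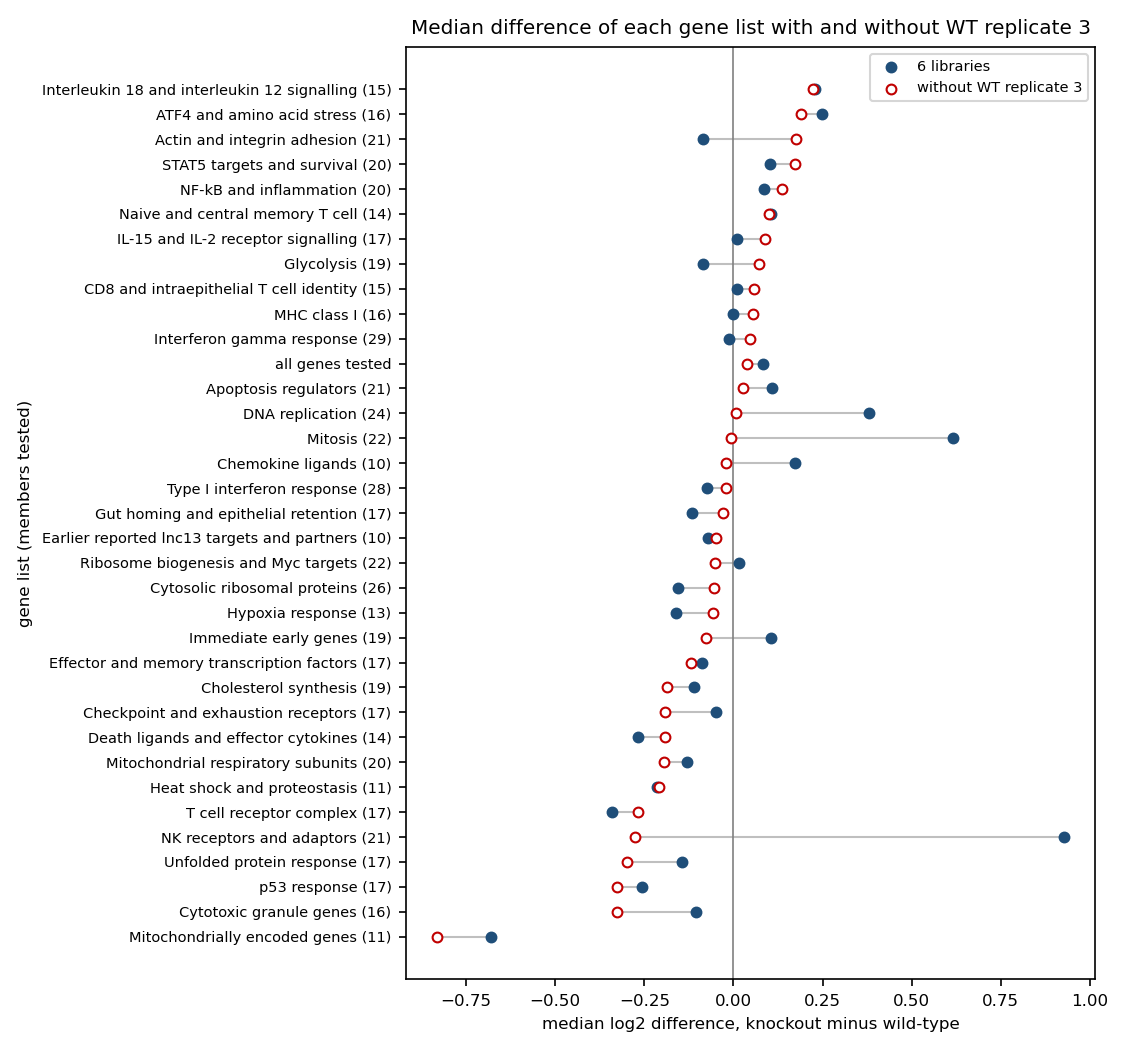
Median log2 difference, knockout minus wild-type, over the tested members (number in brackets) of each list with at least 10 of them, marker lists of other cell types left out. Filled points use 6 libraries and open points leave out wild-type replicate 3: the NK receptor list goes from 0.93 to -0.28 and the mitosis list from 0.62 to -0.01, while the mitochondrially encoded list stays lowest.

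Of 17 genes of the p53 response tested, 5 lay below the wild-type range and none above, beside 9.16% and 11.1% of all genes, with a median log2 difference of -0.26. Ei24, a p53-induced gene of the endoplasmic reticulum, stood at 440.5, 442 and 433 in the wild-type and 310.0, 297 and 299 in the knockout libraries. Pmaip1, the death-promoting protein Noxa, stood at 859, 933 and 833 in the wild-type and 524, 621 and 283 in the knockout libraries, and Mdm2, the ubiquitin ligase that limits p53, at 2188, 1917 and 2375 in the wild-type and 1672, 1711 and 1646 in the knockout libraries. Fas, the death receptor, stood at 650.5, 550.3 and 1154 in the wild-type and 360.2, 507 and 261 in the knockout libraries. Their log2 differences were -0.54 ± 0.16, -0.95 ± 0.29, -0.36 ± 0.13 and -1.04 ± 0.35 (SE), and none passed either test. Among 21 apoptosis regulators 4 lay above and 4 below. Bmf, which opposes Bcl-2 proteins, stood at 28.4, 44.7 and 25.9 in the wild-type and 106, 69.8 and 94.4 in the knockout libraries, and Bcl2a1d, a relative of Bcl-2, at 687, 637 and 565 in the wild-type and 404, 411 and 292 in the knockout libraries.

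Of 17 genes of the unfolded protein response 14 had a log2 difference below 0, 2 were below the wild-type range and none above, beside 9.16% and 11.1% of all genes, and the median was -0.14. Without wild-type replicate 3 the median was -0.30, and 10 of the 17 had all knockout libraries below wild-type replicates 1 and 2. By that looser rule 2997 of all 16371 genes tested lay below. Dnajc3, which restrains the stress kinase PERK, stood at 8555, 9238 and 10832 in the wild-type and 6767, 7424 and 6684 in the knockout libraries, a log2 difference of -0.45 ± 0.12 (SE). Of 11 heat shock genes 3 were below and none above, among them Hspa8, the constitutive Hsp70 chaperone, at 58817, 60085 and 56986 in the wild-type and 52504, 47099 and 44538 in the knockout libraries. Of 26 cytosolic ribosomal protein genes 25 had a log2 difference below 0 with all 6 libraries and 18 without wild-type replicate 3, and 4 were below the wild-type range. In glycolysis 2 of 19 lay above and 2 below. Slc16a3, the lactate exporter MCT4, stood at 42.00, 39.1 and 8.62 in the wild-type and 93.3, 155 and 158 in the knockout libraries, a log2 difference of 2.38 ± 0.63 that passed neither test (DESeq2 adjusted p = 0.0501).

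Interferon genes did not lie to one side. Of 28 type I interferon response genes 2 were above and 4 below the wild-type range, at a median of -0.07, and of 29 interferon gamma response genes 3 were above and 6 below, at -0.01, beside 11.1% and 9.16% of all genes. Without wild-type replicate 3 these medians were -0.02 and 0.05. Isg20, an interferon-induced exonuclease, stood at 904, 815 and 1082 in the wild-type and 618, 599 and 489.8 in the knockout libraries, a log2 difference of -0.71 ± 0.18 (SE). Mx1, an antiviral GTPase, stood at 11.4, 1.12 and 84.9 in wild-type libraries and was 0 in all 3 knockout libraries, and DESeq2 gave it an adjusted p of 0.0364. Nlrc5, the transactivator of class I genes, stood at 1123, 1260.3 and 1807 in the wild-type and 1868, 1810.3 and 2091 in the knockout libraries, and B2m, the light chain of class I molecules, at 97643, 99956 and 93546 in the wild-type and 89385, 88701 and 86802 in the knockout libraries.

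Among lists of epithelial markers, the summed normalised count of the 15 pan-epithelial genes overlapped between groups, at 3415 to 4806 in the wild-type and 3266 to 4954 in the knockout libraries. Of its 10 tested genes 5 had a log2 difference above 0 and 5 below, and 1, Krt20, lay below the wild-type range. The summed normalised count of 18 goblet, Paneth, tuft and enteroendocrine genes was 296 to 378 in the wild-type and 20.6 to 255 in the knockout libraries, with 8 of them tested and 1 below the wild-type range. That of 16 enterocyte genes was 846 to 1319 in the wild-type and 572 to 958 in the knockout libraries, with 2 of 12 tested genes below. These counts stand beside 9.16% of all genes below the wild-type range. Fabp1, the fatty acid binding protein of enterocytes, stood at 245, 246 and 142 in the wild-type and 98.3, 80.3 and 17.8 in the knockout libraries, and Krt20, keratin 20 of differentiated epithelium, at 94.2, 23.4 and 93.5 in the wild-type and 12.04, 16.3 and 5.61 in the knockout libraries. For both genes every knockout library lay below every wild-type library, at log2 differences of -1.95 ± 0.64 and -2.40 ± 0.70 (SE), and neither passed a test. Epcam, which intraepithelial preparations also carry, overlapped between groups at 2323, 3071 and 668 in the wild-type and 2653, 2372 and 1810.4 in the knockout libraries. The summed count of 18 macrophage genes, chiefly Fcer1g and Tyrobp, was 2753 to 46844 in the wild-type and 27339 to 39820.3 in the knockout libraries, with wild-type replicate 3 the lowest. Of its 7 tested genes 1, Cd68, lay below the wild-type range and none above, beside 9.16% and 11.1% of all genes. Cd68 stood at 294, 441 and 492 in the wild-type and 263, 150 and 195 in the knockout libraries and passed neither test. The 14 B cell genes summed to 2904 to 9598 in the wild-type and 7454 to 11199 in the knockout libraries, chiefly Ighm, at 5208, 7121 and 1287 in the wild-type and 6810.3, 5660.2 and 9622 in the knockout libraries. The 10 neutrophil genes summed to at most 2.33 in any library and the 12 fibroblast and smooth muscle genes to at most 21.2, and no member of either list could be tested. The part of such cells in the differences above was not tested.

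The direction of the differences went with the kind of gene. The 4734 tested genes that are predicted, bear clone or Rik names or have no symbol lay above the wild-type range in 16.2% and below it in 3.8%, and their median log2 difference was 0.40. The 11637 other genes lay above in 9.01% and below in 11.3%, with a median of 0.01. Of the 106 genes that DESeq2 called higher 55 were of the first kind, and of the 39 called lower 4 were. Genes at or under 3 reads in every library of one genotype and over 3 reads in every library of the other numbered 135 for those seen in knockout and 13 for those seen in wild-type cells.

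Among 9288 named genes with a mean of at least 50 and a known span, the share of genes above the wild-type range went up with the length of genome the gene covers, from 4.64% of 991 genes under 5 kb to 15.5% of 445 genes over 160 kb. The share below went down, from 17.5% to 3.37%, and the median log2 difference went from -0.09 to 0.15. Seen by library, the genes over 160 kb lay below their own mean in wild-type replicates 1 and 2, at medians of -0.06 and -0.10, and above it in wild-type replicate 3 and the knockout libraries, at 0.07, 0.14, 0.06 and 0.06. For these long genes wild-type replicate 3 lay with the knockout libraries. For genes under 5 kb it lay at 0.0523, close to wild-type replicates 1 and 2 at 0.0641 and 0.0651 and apart from the knockout libraries at -0.0744, -0.00452 and -0.0433. In the unstimulated table the medians went the other way, from 0.22 for the shortest to -0.25 for the longest genes. Spans are those of RefSeq genes, and the share of unspliced or nuclear RNA in a library was not measured.

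**Figure D5:**
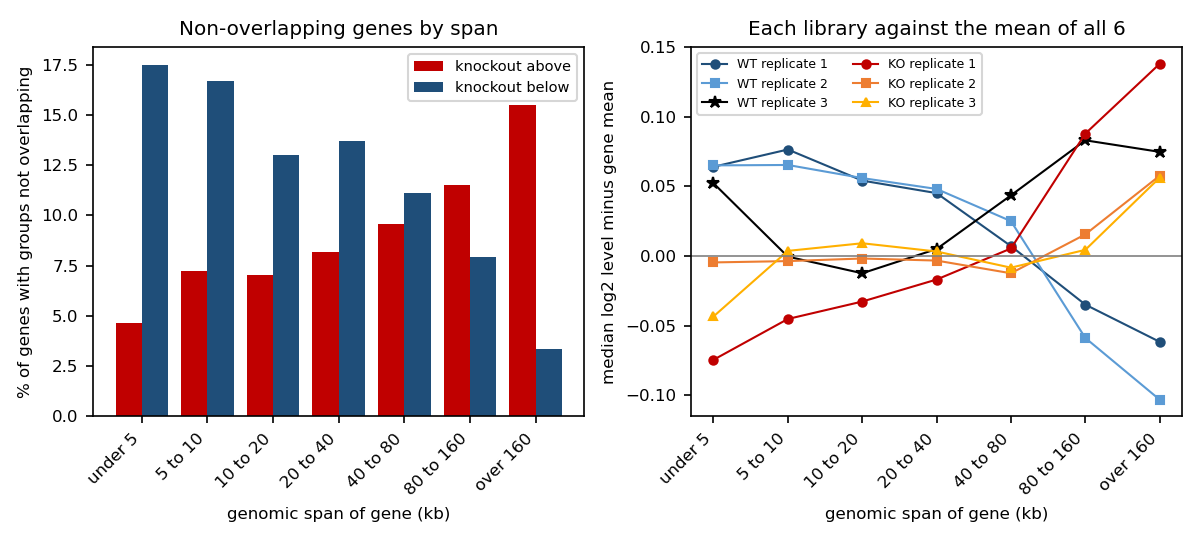
Left, share of genes whose 3 knockout libraries lie above (red) or below (blue) all 3 wild-type libraries, by genomic span of the gene in kb, from 4.64% above under 5 kb to 15.5% above over 160 kb. Right, for each library the median over genes of log2(normalised count + 1) minus the gene's mean over the 6 libraries, where wild-type replicates 1 and 2 run from above 0 to below 0 and knockout replicate 1 runs the other way.

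The levels of 4 long noncoding RNAs of the nucleus, chosen after their values were seen, were as follows. Kcnq1ot1, an imprinted antisense RNA, stood at 929, 681 and 1455 in the wild-type and 2457, 1872 and 1789.8 in the knockout libraries, and Neat1, the RNA of nuclear paraspeckles, at 817, 897 and 939.9 in the wild-type and 1370.5, 1759 and 1111 in the knockout libraries, both with no overlap. Airn, another imprinted antisense RNA, stood at 336, 280.2 and 756 in the wild-type and 1198, 712 and 891 in the knockout libraries, and Malat1, an RNA of nuclear speckles, at 464, 347 and 1043 in the wild-type and 1177, 1084 and 731 in the knockout libraries, both with wild-type replicate 3 inside the knockout range. Log2 differences were 1.05 ± 0.28, 0.65 ± 0.19, 1.14 ± 0.39 and 0.82 ± 0.41 (SE), and none passed either test. That of Malat1 was 1.28 without wild-type replicate 3. In the unstimulated table Airn lay the other way with no overlap, at 1107, 726 and 2291 in wild-type and 322, 25.1 and 382 in knockout libraries, and the groups overlapped for the other 3. No source used here says whether reads were counted by strand, so reads of Kcnq1ot1 and Airn cannot be told apart from those of the genes they overlap.

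Among genes whose groups did not overlap, the largest log2 difference on the lower side was that of a row that the gene name table does not pair with a symbol. ENSMUSG00000135968.1 stood at 1274, 3563 and 1826 normalised counts in wild-type and at 51.2, 176 and 41.1 in knockout libraries, a log2 difference of -4.80 ± 0.60 (SE) that passed DESeq2 (adjusted p = 4.64e-13) and not limma-trend (adjusted p = 0.349). In the unstimulated table the same row held 23628, 80589 and 43564 in wild-type and 34422, 49648 and 26008 in knockout libraries, and the groups overlapped. Of the rows without a symbol, ENSMUSG00000136368.1 had the smallest p on the higher side, at 102, 89.3 and 105 in wild-type and 270, 256 and 238 in knockout libraries. Neither row is given a position or a role here.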

How the data were processed

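RNA of the 3 wild-type and 3 knockout libraries had been poly(A) selected and prepared with a low-input NEBNext kit, per the labels' protocols. The deposited table holds 1 signal value per Ensembl ID in each library, a read count scaled by the authors with a size factor. This was checked on the values: with 1 factor per library 100% of the values above 0 became whole numbers within 0.01. The submitters' processing notes list TopHat, STAR, featureCounts, BWA, deepTools, DESeq, DESeq2, mm10 and mm39 for these samples with no role for each, so no coordinates are printed. Symbols came from a name table for 51486 of 78275 IDs, which held 99.29% to 99.43% of reads, and gene spans from RefSeq (GRCm38.p6).

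Values were tested with limma-trend (limma 3.58.1, R 4.3.3) on log2(normalised count + 1) where a gene's mean reached 5, with Benjamini-Hochberg adjustment at 0.05, and again without wild-type replicate 3. Fold changes on this scale understate the change of low genes. edgeR 4.0.16 and DESeq2 1.42.0 were run on the recovered reads as alternatives, as count models cannot be the main test of normalised values. The scripts were tested on simulated data. Tables were read with pandas 2.3.3 in Python 3.11.15. At 14724754 to 26997371 reads per library counting error is small for genes of high level, where the spread between libraries sets the precision. For genes of few reads, such as Mx1, counting error is not small.

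The members and the 53 gene lists were chosen with earlier results of these data known, so list counts and medians describe and do not test. A gene counts as above or below the wild-type range when all 3 knockout values lie on one side of all wild-type values. Named genes are those past the threshold, then, up to 12 each way, those with the smallest p, a mean of at least 50 and groups that do not overlap, the genes in which wild-type replicate 3 lay farthest from the others at a mean of at least 20, the 2 IL-18 receptor genes and up to 5 members of smallest p of each list described, with defining markers. Predicted genes and T cell receptor and immunoglobulin variable segments were left out of naming. A few genes that the rule or a list names are not reported here. Some genes named for a role (Gzma, Gzmb, Mki67, Klrd1 and the nuclear RNAs among them) were added after their values were seen. The tables of tissue, lamina propria and intraepithelial preparations were not used here. The unstimulated table was fitted alone.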

Additional observations from a re-analysis of the deposited data

Results flagged for a closer look

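All 23 leading genes were chosen for groups that did not overlap after IL-15 culture. Without stimulation the groups of 2 of them, Smg1 and Glmp, did not overlap in the opposite direction. For 2 others, H1f0 and Crtam, they did not overlap in the same direction. The difference between the tables was not tested. Without stimulation the groups did not overlap for 3.81% of all genes with knockout above and 4.71% with knockout below. Neither Smg1 nor Glmp passed limma-trend there (unadjusted p = 0.0902 for Smg1 and 0.0441 for Glmp). Smg1 had a log2 difference of 0.796 after IL-15 culture and of -3.32 without stimulation. In the unstimulated table the wild-type libraries held 2180.3, 3737 and 1611 and the knockout libraries 34.6, 1519.6 and 242 normalised counts. The lowest of these wild-type values, 1611, lay close to the highest knockout value, 1519.6. Glmp had a log2 difference of -0.643 after IL-15 culture and of 1.31 without stimulation, where the wild-type libraries held 3446, 1979 and 4388 and the knockout libraries 5855, 13305 and 5900.1.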

How the results depend on the processing

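The count of genes called with 6 libraries was 0 in limma-trend. It stayed at 0 with edgeR, TMM or upper-quartile scaling, a pseudocount of 0.5 or 5 and a mean of at least 20. It was 3 of 41341 genes with no filter beyond a mean above 0, 145 with DESeq2 (356 genes without an adjusted p) and 1593 with array weights, which gave wild-type replicate 3 a weight of 0.14 and wild-type replicate 1 one of 4.15. Leaving out each library in turn gave 0 to 1, and edgeR without wild-type replicate 3 gave 0. With the replicate number as a block the count was 0 (1402 genes at an unadjusted p under 0.05). Deviations of same-numbered libraries from their group means correlated at 0.000793, -0.0463 and -0.0493, and wild-type replicate 1 correlated best with knockout replicate 3. With 3 libraries per genotype this cannot decide whether same-numbered libraries came from one experiment. Without wild-type replicate 3 limma-trend called 1 gene, edgeR 0 (3034 at an unadjusted p under 0.05) and DESeq2, added after seeing the data, 757. Leaving out a further library gave 0 to 5, and where 1 wild-type library remains it is assumed to vary like the others. Wild-type replicate 3 stood outside every other library for 1569 genes at 4-fold, 3173 at 2-fold and 796 at 8-fold. Of 867 alternative list medians 838 moved by less than the spread between libraries. That spread includes wild-type replicate 3, so the count cannot show how far this library carries a median. For example, the gamma-delta list went from 0.64 to -0.39 without it, less than its spread (SD 1.503). In a span check added after seeing the data, with a mean of at least 200, the shortest and longest classes had medians of -0.11 and 0.12.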

Other observations

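Transcription factors of effector and resident T cells lay on both sides. Of 17 tested, 1 lay above the wild-type range and 4 below, beside 11.1% and 9.16% of all genes. Gata3, a factor of T cell maintenance, stood at 3294, 3131 and 4659 in the wild-type and 2746, 2734 and 2437 in the knockout libraries, with all knockout libraries below and a log2 difference of -0.46 ± 0.17 (SE) with and -0.29 without wild-type replicate 3. Ikzf2, which encodes Helios, stood at 4253, 3777 and 1160.1 in the wild-type and 5182, 4676 and 6107 in the knockout libraries, with all knockout libraries above, and its log2 difference was 1.00 ± 0.46 with and 0.40 without wild-type replicate 3. Foxp3, the factor of regulatory T cells, was present at 277, 100.5 and 529 in the wild-type and 83.3, 185 and 42.99 in the knockout libraries, and the groups overlapped. None of these passed limma-trend or DESeq2.

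Of 17 homing genes 3 lay below the wild-type range and none above, and of 17 checkpoint genes 2 lay below and 1 above, beside 9.16% and 11.1% of all genes. Cxcr6, a chemokine receptor of resident T cells, stood at 36682, 38592 and 40335 in the wild-type and 29374, 33541 and 22499 in the knockout libraries, and Jaml, an adhesion receptor for epithelial cells, at 13218, 14379.7 and 16334 in the wild-type and 11347, 12444 and 9068 in the knockout libraries. Their log2 differences were -0.46 ± 0.15 and -0.43 ± 0.15 (SE). Cd200, which restrains myeloid cells, stood at 504, 638 and 409 in the wild-type and 325, 326 and 285 in the knockout libraries, and Lag3, an inhibitory receptor, stood above at 2438, 2027 and 885 in the wild-type and 2688, 3188 and 3104 in the knockout libraries, lowest in wild-type replicate 3. The log2 difference of Lag3 was 0.87 with and 0.42 without that library. Shmt2, a mitochondrial enzyme of serine metabolism, stood at 1223, 1070.5 and 905 in the wild-type and 1466, 1433 and 2221 in the knockout libraries, with all knockout libraries above. None of these passed limma-trend or DESeq2.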
